A study of Mus musculus with 2 samples.

Results

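Immature granule-protein neutrophils are cells that make the proteins of the secondary (specific) granules but carry little of the RNA that marks mature neutrophils. Here they were cells of a bone marrow derived macrophage culture chosen by their counts of 4 genes. Camp, Ngp and Ltf together had to reach 50 unique molecular identifiers (UMIs) per 10000 UMIs of the cell, and Retnlg had to stay under 10 per 10000. The choice was made among barcodes with at least 500 genes, at least 1000 UMIs and at most 10% mitochondrial UMIs. Of 23101 such cells, 2750 were members. The library treated with Tamm-Horsfall protein (THP) held 1226 members among 12123 cells, 10.1% (exact binomial 95% interval 9.58 to 10.7). The vehicle library held 1524 among 10978, 13.9% (13.2 to 14.5).

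Both groups were wild-type 129Sv mouse marrow cells, grown in 10% serum with 50 ng/ml M-CSF, the growth factor that directs marrow cells to the macrophage fate. On day 7 one culture received 1 µg/ml of a truncated THP that does not polymerize and the other received the 5% dextrose vehicle, each for 18 h. THP, or uromodulin, is a protein of the kidney tubule, and the comparison asks how the cultured cells answer to its non-polymerizing form. After detachment, removal of dead cells and a filter step, Chromium droplet libraries were prepared. There was 1 library per group, so no difference has a replicate check, and treatment cannot be told apart from culture dish or library preparation. Every interval below covers counting error only. The cultures were made to yield macrophages, so the neutrophils described are cells that persisted or arose in M-CSF medium.

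Neutrophils build their granules in order as they mature. Promyelocytes make the primary (azurophil) granules with myeloperoxidase and serine proteases; myelocytes and metamyelocytes, under the transcription factor C/EBPε, make the secondary granules with lactoferrin, cathelicidin and lipocalin-2; later stages add tertiary (gelatinase) granules and secretory vesicles. Cell division ends at about the myelocyte stage. Neutrophils carry receptors for bacterial and host danger signals that act through the transcription factor NF-kB, whose target genes include cytokines and the inhibitors that shut the pathway off.

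The label was checked against marker genes, whose UMIs were summed over member cells and scaled to counts per 1000000 UMIs of those cells (CPM). The selection fixed the levels of Camp, Ngp and Ltf, so these are descriptions only. Summed S100a8 and S100a9, the calcium-binding proteins that fill the neutrophil cytosol, had a median of 2663 per 10000 UMIs in THP members and 2320 in vehicle members, against 6.07 and 8.67 in the other cells. All 1226 THP members and 1523 of 1524 vehicle members reached 50 per 10000 for this pair. The 6 genes of the S100 list summed to 188692 and 183088 CPM in THP and vehicle members. In mature neutrophils, defined below, they summed to 235584 and 192581 CPM, so high S100 RNA is shared with those cells. In primary granule progenitors, also defined below, they summed to 43710 and 34917 CPM. Cebpe, which encodes C/EBPε, was at 396 CPM (385 to 408) in THP members and 578 CPM (566 to 590) in vehicle members. In THP and vehicle cells it was at 144 and 213 CPM in mature neutrophils and at 97.3 and 121 CPM in progenitors. Mmp8, the neutrophil collagenase, was at 91.6 CPM (86.2 to 97.2) and 124 CPM (119 to 130). Ly6g, the common surface marker of mouse neutrophils, was low in both, at 8.32 CPM (6.77 to 10.1) and 7.36 CPM (6.06 to 8.86), and higher in members with more granule RNA, as described below. With each cell thinned to 2000 UMIs, 11.4% (9.62 to 13.3) of THP members and 12.8% (11.1 to 14.6) of vehicle members had an Mmp8 UMI, against 3.92% and 4.16% of C1q cells, the cells outside the members with at least 10 UMIs of the macrophage genes C1qa, C1qb and C1qc per 10000. Without thinning the shares were 19.8% and 19.9% of members and 24.98% and 26.3% of the C1q cells, whose median depth was 20793 and 21945 UMIs. The markers go with the label, with Mmp8 and Ly6g at low levels.

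The sums behind each value were 11892401 UMIs for THP members and 15214424 UMIs for vehicle members. Members had a median of 7536 UMIs and 2034 genes in the THP library and 8578.5 UMIs and 2485.5 genes in the vehicle library, with a mitochondrial share of 1.76% and 1.81%. The granule sum that chose them had a median of 480 per 10000 in THP members, from 50.5 to 1763, and 511 in vehicle members, from 50.2 to 3597. Just inside its limit, between 50 and 60, lay 30 THP and 37 vehicle members, and just outside, between 40 and 50, lay 53 and 62 cells with Retnlg under its limit. Retnlg between 8 and 10 per 10000 was found in 11 and 18 members, and 12 and 20 cells that met the granule limit were left out with Retnlg between 10 and 12. No Retnlg UMI was found in 83.2% of THP members and 79.2% of vehicle members. The libraries shared 42 barcodes, none of which was a member in both.

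Sequence upstream of the genes that define these cells, and of the 3 genes with the highest ratios of THP over vehicle, is shown because the first set chose the cells and the second leads the comparison. The bases are from RefSeq promoters of GRCm38.p6, 5′ to 3′ on the strand of the gene, in the window of 250 bases before the RefSeq start. Bases that GENCODE places inside the gene are left out. Capitals mark matches on either strand to the C/EBP motif TTGCNNAA or to a kB motif, the site type bound by NF-kB.
Camp (chr9:109849618-109849706, minus strand): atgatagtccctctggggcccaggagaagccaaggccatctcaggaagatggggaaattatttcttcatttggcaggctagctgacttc
Ngp (chr9:110419558-110419746, plus strand): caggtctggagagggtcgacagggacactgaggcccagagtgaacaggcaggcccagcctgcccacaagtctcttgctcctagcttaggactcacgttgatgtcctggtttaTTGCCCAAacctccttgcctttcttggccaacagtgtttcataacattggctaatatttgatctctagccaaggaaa
Ltf (chr9:111019042-111019270, plus strand): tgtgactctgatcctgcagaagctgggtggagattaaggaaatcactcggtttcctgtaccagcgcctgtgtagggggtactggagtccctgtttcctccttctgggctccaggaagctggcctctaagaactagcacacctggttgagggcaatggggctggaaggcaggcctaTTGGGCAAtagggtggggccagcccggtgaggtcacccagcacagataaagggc
Saa3 (chr7:46715701-46715926, minus strand): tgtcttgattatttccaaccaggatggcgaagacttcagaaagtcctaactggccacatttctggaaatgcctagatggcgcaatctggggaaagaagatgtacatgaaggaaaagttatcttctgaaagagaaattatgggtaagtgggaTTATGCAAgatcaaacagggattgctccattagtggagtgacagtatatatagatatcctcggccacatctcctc
Cxcl1 (chr5:90890995-90891240, plus strand): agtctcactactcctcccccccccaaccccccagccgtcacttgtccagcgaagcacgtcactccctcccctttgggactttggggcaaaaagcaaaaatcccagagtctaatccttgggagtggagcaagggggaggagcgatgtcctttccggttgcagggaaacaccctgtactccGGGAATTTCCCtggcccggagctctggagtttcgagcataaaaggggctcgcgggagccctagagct
Acod1 (chr14:103046762-103046976, plus strand): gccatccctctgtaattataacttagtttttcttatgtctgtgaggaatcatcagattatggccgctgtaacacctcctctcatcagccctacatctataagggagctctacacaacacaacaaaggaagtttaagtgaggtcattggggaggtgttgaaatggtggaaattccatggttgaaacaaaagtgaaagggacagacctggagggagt

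The C/EBP motif was present in the 250-base window of Ngp, with matches beginning 138 and 11 bases before the start, of which the first is within the bases shown, and of Ltf, with a match at 75 bases. Saa3 held a C/EBP match at 99 bases. Cxcl1 held 2 overlapping kB matches, at 71 and 70 bases, 1 on each strand. Camp and Acod1 held neither motif in this window. Of 27025 mouse promoter windows of the same length, 9.55% held the C/EBP motif and 7.01% the kB motif. Among secondary granule genes, 6 of 17 with a promoter in the table held the C/EBP motif, namely Anxa1, Fcnb, Lcn2, Ltf, Mmp8 and Ngp. Among NF-kB targets and feedback genes, 10 of 26 held the kB motif, and among inflammatory cytokines and chemokines 5 of 13 did. A match is a run of letters, not a measured binding site.

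The comparison of THP with vehicle covered 7573 genes that reached 10 CPM in either library. The ratio is that of CPM + 1 on the log2 scale, THP over vehicle, and a gene passed the size rule at 2-fold or more. The rule was passed by 127 genes that were higher in THP members (1.68%) and 286 that were lower (3.78%). The median log2 ratio of all genes was -0.17, and the central 95% ran from -1.09 to 0.85. This split depended on scaling, since 30.8% of the genes past the rule were higher with library totals but 61.4% with TMM factors (196 higher, 123 lower) and 63.0% with RLE factors (201 and 118), both of which centre the ratios near 0. Both factors moved the ratios upward, so the 127 higher genes could not drop out, and all stayed past the rule. Among the 286 lower genes, 123 stayed with TMM factors and 118 with RLE factors. With equal weight per cell, 91 of the 127 and 239 of the 286 were still past it. With each cell thinned to 2000 UMIs, 92 and 201 were.

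**Figure D1:**
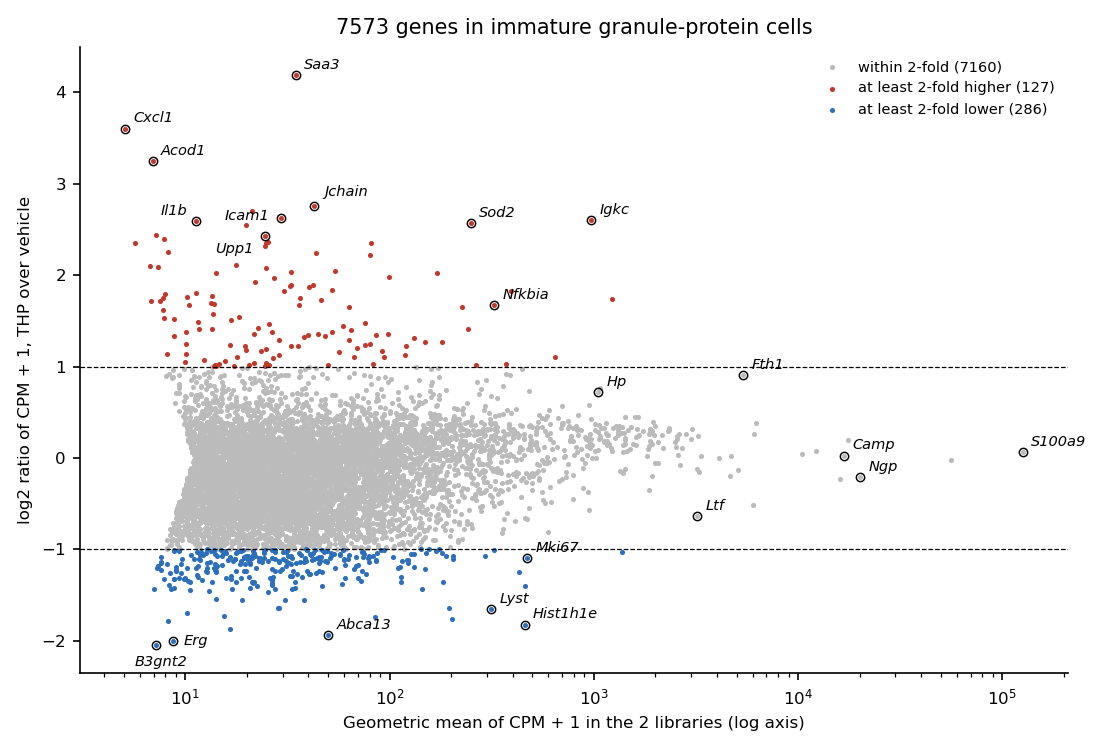
Each point is 1 of 7573 genes in the member cells; the horizontal axis is the geometric mean of CPM + 1 in both libraries on a log scale, and the vertical axis is the log2 ratio of THP over vehicle. Dashed lines mark 2-fold, and the granule genes Camp, Ngp and Ltf lie between them while Saa3, at 4.18, lies highest.

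All 21 genes of the secondary granule list were measured. Of the 18 other than Camp, Ngp and Ltf, none passed the rule in either direction; their median log2 ratio was -0.17, the same to 2 decimals as that of all genes, and they ran from -0.67 to 0.77. With the 3 genes that chose the cells, the median was -0.21. Camp (ENSMUSG00000038357, chromosome 9, 109847379 to 109849617, minus strand), the cathelicidin antimicrobial peptide, was at 16956 CPM (16882 to 17030) in THP members and 16660 CPM (16595 to 16724) in vehicle members. Ngp (ENSMUSG00000032484, chromosome 9, 110419747 to 110423012, plus strand), a granule protein of the cystatin fold, was at 18693 CPM (18615 to 18771) and 21638 CPM (21564 to 21712). Ltf (ENSMUSG00000032496, chromosome 9, 111019271 to 111042767, plus strand), the iron-binding lactoferrin, was at 2577 CPM (2548 to 2606) and 4015 CPM (3984 to 4047). Their log2 ratios were 0.03, -0.21 and -0.64; the choice of cells used their sum, so these are given as a description.

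The other secondary granule genes also went both ways within 2-fold. Lcn2, the siderophore-binding lipocalin, had 10615 and 10309 CPM, and Chil3, a chitinase-like lectin, had 14770 and 17314 CPM in THP and vehicle members. Hp, haptoglobin, which binds free haemoglobin, had one of the highest ratios of the list, with 1348 CPM (1327 to 1369) against 818 CPM (804 to 833), and its log2 ratio was 0.72. Stfa2l1, a cysteine protease inhibitor of the stefin family, had 156 CPM (149 to 163) against 90.7 CPM (86.0 to 95.6), 0.77 on the log2 scale, or 1.11 with equal weight per cell. At the low end Olfm4, olfactomedin-4, which only a subset of neutrophils makes, had 366 CPM (355 to 377) against 577 CPM (565 to 589), a ratio of -0.65. Fcnb, the lectin ficolin-B of early neutrophil stages, had 373 CPM (362 to 384) against 594 CPM (581 to 606), -0.67. Cd177, Itgam and Itgb2, surface proteins of the granule membrane, had log2 ratios of -0.42, -0.47 and -0.30. With library totals none of these genes reached 2-fold.

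**Figure D2:**
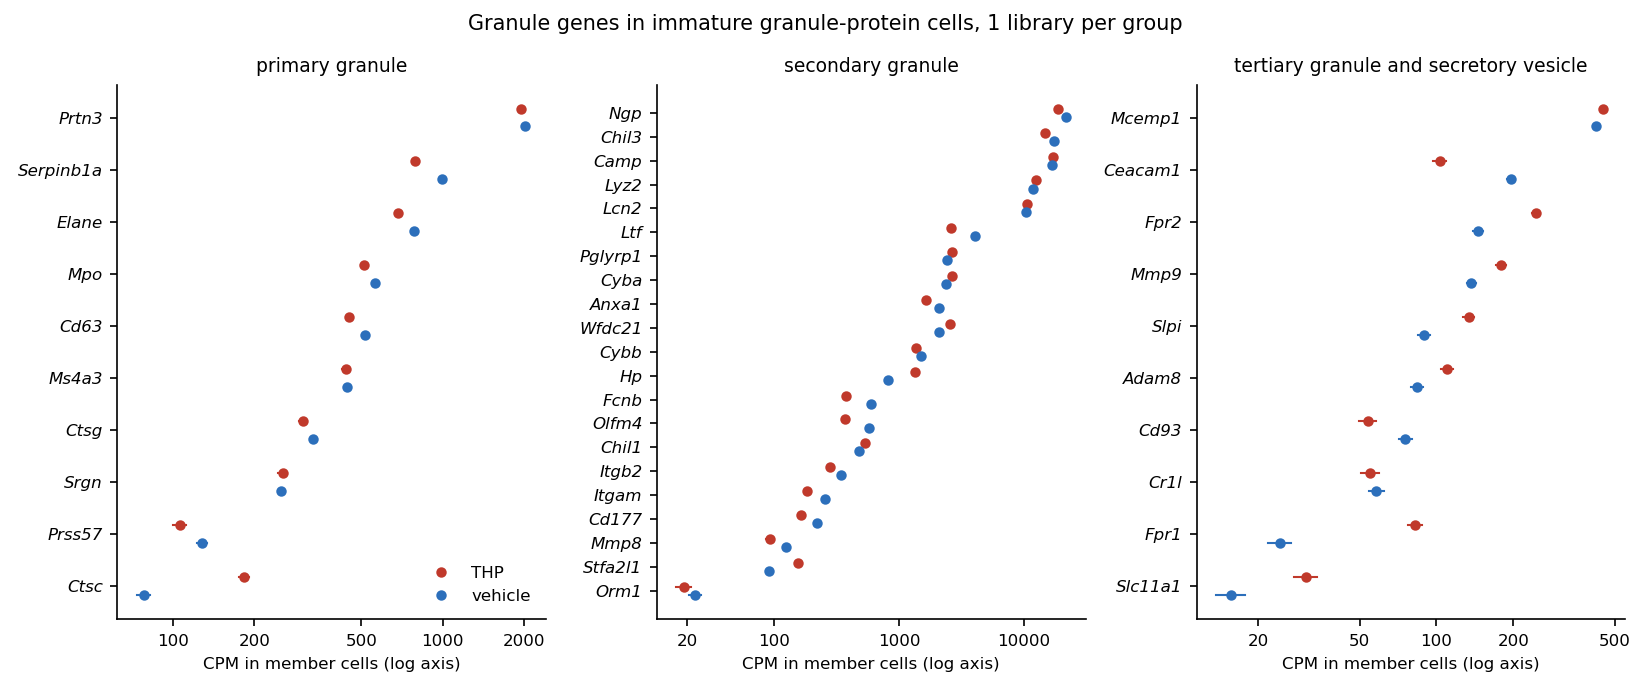
CPM of each granule gene in THP members (red) and vehicle members (blue) on a log axis, with exact Poisson 95% intervals as lines, in 3 granule classes. Most pairs of points lie close, and the widest gaps are those of Ctsc and Fpr1.

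Primary granule genes had 1 member past the rule. Of 11 genes, 10 were measured, 1 was higher, and the median log2 ratio was -0.13; this median changed sign under some alternatives. Mpo, myeloperoxidase, had 509 CPM (496 to 522) in THP members and 562 CPM (550 to 574) in vehicle members. Elane, neutrophil elastase, had 681 and 786 CPM, and Prtn3, proteinase 3, had 1949 and 2024 CPM. A summed level of Mpo, Elane, Prtn3 and Ctsg of at least 50 per 10000 was found in 185 THP members, 15.1% (13.1 to 17.2), and 227 vehicle members, 14.9% (13.1 to 16.8), and these intervals overlapped. The gene past the rule was Ctsc, the cathepsin that activates the granule serine proteases, with 183 CPM (176 to 191) against 77.8 CPM (73.4 to 82.3), and its log2 ratio was 1.23. Without members that had a C1q UMI, the ratio of Ctsc was 0.56, under the rule.

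In the list of tertiary granules and secretory vesicles, 10 of 12 genes were measured, with 1 higher and a median of 0.39. Fpr1, the receptor for bacterial formyl peptides, had 82.7 CPM (77.7 to 88.1) in THP members and 24.3 CPM (21.9 to 26.9) in vehicle members, a log2 ratio of 1.73, and 1.66 without members with a C1q UMI. Fpr2, its relative that also binds serum amyloid peptides, had 245 CPM (236 to 254) against 146 CPM (140 to 152), 0.75. Mmp9, gelatinase B, had 179 and 137 CPM, a ratio of 0.39. Ceacam1, an adhesion molecule with an inhibitory tail, had 103 CPM (97.2 to 109) against 196 CPM (189 to 203), -0.92. Fpr1 and Ceacam1 thus lay at opposite ends of this list.

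The highest ratios belonged to acute-phase, chemokine and NF-kB target genes. Saa3 (ENSMUSG00000040026, chromosome 7, 46711998 to 46715700, minus strand), an acute-phase serum amyloid that phagocytes make, had 147 CPM (141 to 154) in THP members and 7.16 CPM (5.88 to 8.64) in vehicle members, a log2 ratio of 4.18. Its UMIs lay in 307 THP members and 46 vehicle members. Sod2 (ENSMUSG00000006818, chromosome 17, 13006846 to 13040063, plus strand), the mitochondrial superoxide dismutase, had 605 CPM (592 to 620) against 101 CPM (96.4 to 107), and its log2 ratio was 2.57, with UMIs in 1098 and 701 members. Icam1 (ENSMUSG00000037405, chromosome 9, 21015985 to 21028817, plus strand), the adhesion ligand of leukocyte integrins, had 72.3 CPM (67.6 to 77.3) against 10.8 CPM (9.25 to 12.6), 2.63. Upp1, uridine phosphorylase, had 55.8 CPM (51.7 to 60.2) against 9.60 CPM (8.10 to 11.3), 2.42. With cells thinned to 2000 UMIs, a Sod2 UMI was found in 64.4% (61.6 to 67.1) of THP members and 14.7% (12.95 to 16.6) of vehicle members, after 19 and 21 shallower members were left out; the unthinned shares were 89.6% and 46.0%. In C1q cells, which are no negative control for this gene, the thinned shares were 63.7% and 32.0%.

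Other genes among the 12 highest rested on few cells. Cxcl1 (ENSMUSG00000029380, chromosome 5, 90891241 to 90893115, plus strand), a chemokine that draws neutrophils, had 16.7 CPM (14.5 to 19.2) against 0.460 CPM (0.185 to 0.948), from 199 UMIs in 51 THP members and 7 UMIs in 6 vehicle members. Of its THP UMIs, 49.2% came from 5 cells, and without members with a C1q UMI its THP level was 4.69 CPM. Acod1 is the gene of the itaconate-forming enzyme (ENSMUSG00000022126, chromosome 14, 103046977 to 103056573, on the plus strand). It had 20.3 CPM (17.9 to 23.1) against 1.25 CPM (0.752 to 1.95), and its log2 ratio was 3.25, with UMIs in 101 and 15 members. Ccl4, Il1b, Cxcl10 and Bcl2a1a had ratios of 2.70, 2.59, 2.55 and 2.44. The Bcl2a1 genes are close copies whose UMIs could have been split in counting. Ccl4 and Ccl3 are related genes, and whether any of their UMIs were split was not tested. The antibody genes Jchain and Igkc had ratios of 2.76 and 2.60, but 5 cells held 96.6% of the THP and 94.9% of the vehicle UMIs of Jchain and 88.1% and 93.8% of those of Igkc. Without the 13 THP and 7 vehicle members with Igkc at 10 or more per 10000, an alternative chosen after the data were seen, their ratios were 0.82 and 0.90, whereas without members with a C1q UMI they were 6.36 and 6.67. Whether these few barcodes each hold an antibody-making cell together with a neutrophil was not tested.

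As a group, inflammatory cytokine and chemokine genes were higher in THP members. Of 20 genes on the list, 11 reached 10 CPM. Of these, 10 passed the rule as higher and none as lower, beside 1.68% and 3.78% of all genes. The median log2 ratio of the 11 was 2.05. At least Cxcl1, Il1b, Ccl4, Cxcl10 and Ccl12 were under 10 CPM in vehicle members. They were measured only through their THP level and could not count as lower, so the count leans toward higher genes. The 9 unmeasured genes, among them Il6, Il10, Csf3 and Ptgs2, stayed under 10 CPM in both libraries. Tnf, the cytokine tumour necrosis factor, had 62.3 CPM in THP members and 16.0 CPM in vehicle members, a ratio of 1.89. Cxcl2, a second neutrophil-attracting chemokine, had 182 and 34.8 CPM, 2.35, and Il1b had 26.7 CPM (23.9 to 29.8) and 3.61 CPM (2.72 to 4.71). Il1rn, the antagonist of the interleukin-1 receptor, was the member within 2-fold, at 16.5 and 12.9 CPM. The values of Tnf, Cxcl2 and Il1rn were chosen for the text after they were seen.

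NF-kB targets and feedback genes had 30 of 34 members measured, with 20 higher, none lower and a median log2 ratio of 1.497. At least Saa3, Acod1 and Bcl3 were under 10 CPM in vehicle members, so they were measured only through their THP level and could not count as lower. The following members were also chosen after their values were seen. Nfkbia, which encodes the inhibitor IκBα, had 581 CPM in THP members and 182 CPM in vehicle members, a ratio of 1.67. Relb and Nfkb2, subunits of the non-canonical branch, had 56.9 against 10.3 CPM and 49.9 against 11.04 CPM, ratios of 2.36 and 2.08. The subunits Rel and Nfkb1 were within 2-fold, at 51.0 and 53.2 CPM and at 90.1 and 70.4 CPM. Bcl3, a nuclear IκB protein, had 36.0 against 7.56 CPM, 2.11. Among the feedback inhibitors, Tnfaip3, which encodes the ubiquitin-editing protein A20, had a ratio of 1.57, its partner Tnip1 one of 1.84, and Nfkbie one of 1.78. Gpr84, a receptor for medium-chain fatty acids, had 171 against 36.0 CPM, 2.22. Relb, Nfkb2 and the inhibitors named here were thus past the rule, whereas Nfkbid, Irak3 and Zfp36, also on the list and measured, were within it. Rel, Birc2 and Malt1 had ratios below 0, at -0.06, -0.40 and -0.31; that of Rel was above 0 with TMM factors, at 0.10, and that of Malt1 when corrected for transcript length, at 0.18.

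**Figure D3:**
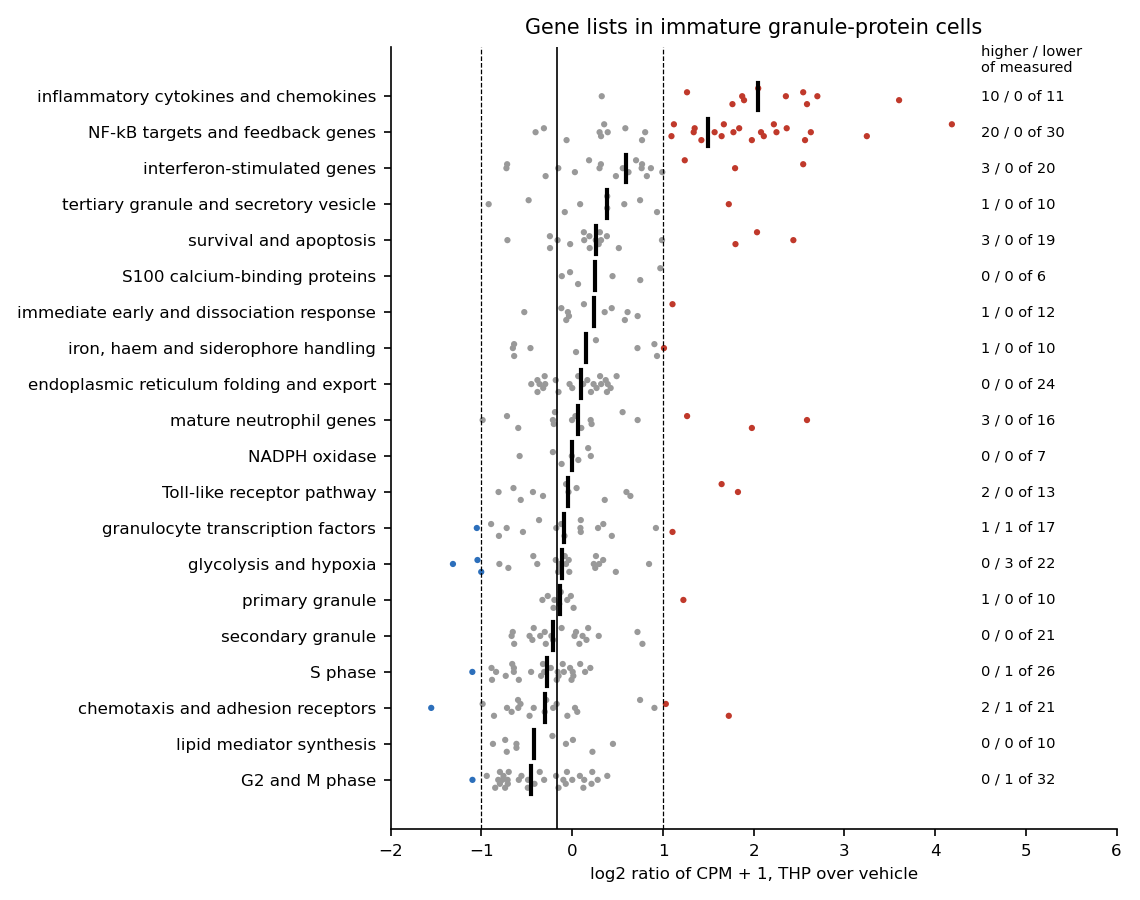
Each point is a gene of a list, placed by its log2 ratio of THP over vehicle; red and blue points lie past 2-fold, the thick bar is the list's median, the thin line is the median of all 7573 genes (-0.17) and the counts stand at the right. The inflammatory and NF-kB lists have medians of 2.05 and 1.497, and every other list has a median under 1.

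Receptors that sense microbes differed from one another. In the Toll-like receptor pathway 13 of 20 genes were measured, with 2 higher and a median of -0.04 that changed sign under some alternatives. Tlr2, the receptor for bacterial lipopeptides, had 56.2 CPM (52.0 to 60.6) in THP members and 15.1 CPM (13.2 to 17.2) in vehicle members, 1.83. Cd14, the co-receptor for lipopolysaccharide, had 399 CPM (388 to 410) against 127 CPM (121 to 133), 1.65. Tlr4, the lipopolysaccharide receptor, had 9.25 CPM (7.602 to 11.1) against 15.1 CPM (13.2 to 17.1), -0.65. Clec4e and Clec4d, C-type lectins for microbial glycolipids, had ratios of 1.98 and 1.27. The receptors of the surface thus split, with Tlr2, Cd14 and the lectins past the rule and Tlr4 within it.

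Interferon-stimulated genes had 20 of 29 members measured, 3 higher, none lower, and a median of 0.59. The 3 were Cxcl10, Ifit1 and Bst2. Bst2, the membrane protein tetherin, had 116 CPM (110 to 122) in THP members and 48.6 CPM (45.1 to 52.2) in vehicle members, a ratio of 1.24, and 0.98 when corrected for length. Ifit1, an antiviral RNA-binding protein, had 13.9 CPM (11.8 to 16.2) against 3.29 CPM (2.44 to 4.33), 1.80. Isg15, a ubiquitin-like protein, was just within the rule, at 55.7 CPM (51.5 to 60.1) and 27.5 CPM (24.9 to 30.2), 0.99.

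Among survival genes, 19 of 20 were measured, 3 were higher and none lower, with a median of 0.26. The 3 were the Bcl2a1 copies, which encode a BCL2-family survival protein that NF-kB induces. Bcl2a1b had 65.7 CPM (61.1 to 70.4) in THP members and 15.2 CPM (13.3 to 17.3) in vehicle members, 2.04, and 1.36 without members with a C1q UMI. Mcl1, a survival factor on which neutrophils depend, had 257 and 235 CPM, a ratio of 0.13, and was chosen after its value was seen.

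Granulocyte transcription factors had all 17 members measured, with 1 higher and 1 lower and a median of -0.09 that changed sign under some alternatives. Cebpb, the factor of emergency granulopoiesis, had 513 CPM (500 to 526) in THP members and 270 CPM (262 to 279) in vehicle members, a ratio of 0.92 that reached 1.09 with TMM factors. Cebpe, of the secondary granule stage, had the values given above and a ratio of -0.54. Gfi1, the repressor required for neutrophil fate, had 21.9 CPM (19.3 to 24.7) against 41.5 CPM (38.3 to 44.8), -0.89. Junb, an AP-1 subunit, was past the rule at 97.04 CPM (91.5 to 103) against 44.6 CPM (41.3 to 48.0), 1.11. Myb, a factor of dividing progenitors, was past it at 51.1 CPM (47.1 to 55.4) against 107 CPM (102 to 112), -1.05, and within it with TMM factors, at -0.89. Kit, the stem cell factor receptor, had 13.8 CPM (11.8 to 16.1) against 29.97 CPM (27.3 to 32.9), -1.07, and was within the rule with TMM factors, at -0.91, and corrected for length, at -0.63.

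Receptors for chemotaxis and adhesion had a median of -0.30, with 2 of 21 genes higher and 1 lower. C5ar1, the receptor for complement C5a, was higher with Fpr1, at 118 CPM (112 to 125) in THP members and 57.3 CPM (53.6 to 61.2) in vehicle members, 1.03. It was within the rule with equal weight per cell, at 0.77, without members with a C1q UMI, at 0.95, and without those with a C1q, Apoe or Pf4 UMI, at 0.73. Jaml, a junctional adhesion molecule, was lower, at 17.0 CPM (14.7 to 19.5) against 51.8 CPM (48.2 to 55.5), -1.55. Cxcr2, the chemokine receptor of mature neutrophils, had 55.4 CPM (51.3 to 59.8) against 91.8 CPM (87.1 to 96.8), -0.72.

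Lists of housekeeping and effector functions held few genes past the rule. None of the 7 NADPH oxidase genes, 24 endoplasmic reticulum genes, 10 measured lipid mediator genes or 6 S100 genes passed it. S100a8 had 55912 CPM (55778 to 56047) in THP members and 56834 CPM (56715 to 56954) in vehicle members, and S100a9 had 129093 CPM (128889 to 129298) and 123440 CPM (123264 to 123617). Glycolysis and hypoxia genes had 3 lower of 22 measured, Pfkfb3, Slc2a3 and Hk1, with ratios of -1.31, -1.04 and -1.003. With TMM factors, with equal weight per cell or without members with a C1q UMI, Pfkfb3 alone of the 3 was past the rule as lower, and corrected for transcript length none was. Of the iron-handling genes, Hmox1, haem oxygenase, was higher at 70.0 CPM (65.4 to 74.97) against 34.2 CPM (31.4 to 37.3), 1.01. It was within the rule with equal weight per cell, at 0.93, corrected for transcript length or with the same mix of granule ranges, at 0.89 in each, and without members with a C1q, Apoe or Pf4 UMI, at 0.59. Fth1, the ferritin heavy chain that stores iron, had 7397 CPM (7348 to 7446) against 3947 CPM (3916 to 3979), 0.91, and 1.07 with TMM factors.

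Cell cycle lists held few genes past the rule. Of 32 genes of the G2 and M phases, all measured, 1 was lower and none higher, with a median of -0.45 beside -0.17 for all genes; of 26 measured S phase genes, 1 was lower, with a median of -0.27. Among all genes 3.78% were lower. With TMM factors, or corrected for transcript length, neither list had a lower gene. Mki67, the proliferation antigen, had 321 CPM (311 to 332) in THP members and 689 CPM (676 to 703) in vehicle members, a ratio of -1.10, and -0.93 with TMM factors. Top2a, topoisomerase IIα, had 450 CPM (438 to 462) against 792 CPM (778 to 806), -0.82. Corrected for transcript length, these ratios were -0.44 and -0.38. Dtl was the lower S phase gene, at 25.3 CPM (22.5 to 28.3) against 55.4 CPM (51.7 to 59.3), a ratio of -1.10. It was within the rule with TMM factors, at -0.94, and corrected for length, at -0.69. Of the 32 G2 and M genes, 24 had ratios below 0 and 8 above, and of the 26 S phase genes 21 and 5. Above the median of all genes lay 12 of the 32 and 11 of the 26. Birc5 on the G2 and M list, chosen after its value was seen, had 333 and 303 CPM. With cells thinned to 2000 UMIs, 52.4% (49.6 to 55.3) of THP members had a Mki67 or Top2a UMI. The vehicle share was 61.3% (58.8 to 63.7).

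The 12 lowest ratios included 3 histone genes and several genes with long transcripts. Hist1h1e (ENSMUSG00000051627, chromosome 13, 23620629 to 23622558, minus strand), a linker histone, had 242 CPM (234 to 251) in THP members and 861 CPM (846 to 876) in vehicle members, a log2 ratio of -1.82. Hist1h2ap and Hist1h3c, core histones of the same cluster with near-identical copies, had ratios of -1.76 and -1.74. These RNAs mostly lack a poly(A) tail, by which the method captures RNA. Lyst (ENSMUSG00000019726, chromosome 13, 13590397 to 13778803, plus strand), the regulator of lysosome and granule size, had 175 CPM (168 to 183) against 555 CPM (544 to 567), -1.66. Abca13, a very long lipid transporter, had 24.6 CPM (21.8 to 27.5) against 97.01 CPM (92.1 to 102), -1.94. B3gnt2 and Erg, at 13.5 and 16.4 CPM in vehicle members, had the lowest ratios, -2.05 and -1.998. The others were F730016J06Rik, Tagap, Tex15, Zfp141 and Kif13b, between -1.87 and -1.64.

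Genes with longer transcripts had lower log2 ratios. Across the 7573 genes, which are not independent replicates, Spearman's rho was -0.53. In 5 groups of like size from the shortest to the longest transcripts the median ratio was 0.17, -0.01, -0.21, -0.35 and -0.55. The same groups held 60, 26, 17, 14 and 10 higher genes and 18, 14, 30, 71 and 153 lower genes. Corrected for length, Lyst had a ratio of -0.97 and Abca13 one of -1.24, while Saa3, Sod2 and Icam1 had 4.17, 3.04 and 2.66. After this correction 116 of the 127 higher genes and 54 of the 286 lower genes were still past the rule. The part of length in the lower genes was not tested further.

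RNA of other cell types was measured in the members, since free RNA and doublets were not removed. Of 9 macrophage markers, 8 were measured, 5 were higher in THP members and the median was 1.13, with a summed level of 854 CPM in THP members and 414 CPM in vehicle members. C1qa had 125 CPM (119 to 132) against 44.3 CPM (41.0 to 47.8). A C1q UMI was found in 297 THP members, 24.2%, and 278 vehicle members, 18.2%; with cells thinned to 2000 UMIs the shares were 10.5% (8.85 to 12.4) and 5.59% (4.48 to 6.87). In turn 64.9% and 81.6% of C1q cells had a UMI of Camp, Ngp or Ltf, at 125 and 190 CPM against 38226 and 42313 CPM in members. Pf4 was also higher in THP members, at 393 against 147 CPM. Ighm had 738 against 208 CPM, but 5 cells held 84.9% of its THP and 83.8% of its vehicle UMIs, and without the members rich in Igkc it had 37.1 against 35.2 CPM, a ratio of 0.07. All 6 monocyte markers were measured, with 1 lower and none higher in THP members. Their sum was 1550 CPM in THP and 1517 CPM in vehicle members, above that of the macrophage markers. The monocyte median was -0.52, and 0.02 corrected for transcript length. Of 8 dendritic cell markers 3 were measured, none past the rule, with sums of 520 and 470 CPM. No marker of mast cells and basophils, erythroid cells or stromal cells reached 10 CPM, and Epx, Fcer1a and Lum had no UMI in members of either library.

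Levels in THP members were also set beside those in THP C1q cells. C1qa was at 13.5% of its level there, Sod2 at 106%, Saa3 at 103%, Icam1 at 51.7% and Upp1 at 558%. Cxcl1, Acod1 and Ccl4 were at 24.5%, 25.1% and 16.5%. Without members with a C1q UMI the log2 ratios were 3.97 for Saa3, 2.71 for Sod2, 2.79 for Icam1, 2.02 for Il1b and 1.29 for Bcl2a1a, and 86 of the 127 higher genes stayed past the rule, as did 10 of 11 inflammatory and 19 of 30 NF-kB genes. With members that had an Apoe or Pf4 UMI left out as well, an alternative chosen after the data were seen, 10 and 17 did, and the ratios of Saa3, Sod2 and Icam1 were 4.04, 2.84 and 2.96. Bcl2a1b was then within the rule, at 0.96. A member without a C1q UMI can still hold macrophage RNA. The part of macrophage RNA in the values of Saa3, Sod2, Icam1, Upp1, Cxcl1, Acod1, Ccl4, Il1b and the Bcl2a1 genes was not tested.

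Members were divided into 4 ranges of the granule sum, 50 to under 100, 100 to under 200, 200 to under 400, and 400 and over. These held 142, 184, 214 and 686 THP members and 155, 206, 280 and 883 vehicle members. Levels of genes that the rule did not use differed along them. Summed Mpo, Elane, Prtn3 and Ctsg went from 5567 through 4833 and 3676 to 1188 CPM in THP members and from 6895 through 5623 and 3826 to 1371 CPM in vehicle members. Cebpe went from 197 through 253 and 394 to 606 CPM in THP members and from 306 through 374 and 575 to 791 CPM in vehicle members, lower in THP members in each range. Ly6g was at 0.805 and 2.97 CPM in the lowest range and at 19.9 and 14.2 CPM in the highest.

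The inflammatory difference was present in each of the 4 ranges. NF-kB genes past the rule as higher numbered 21 of 31, 20 of 31, 18 of 30 and 17 of 28 measured from the lowest range to the highest, and inflammatory genes 9 of 11, 9 of 11, 10 of 10 and 7 of 9, beside 1.52%, 2.04%, 2.10% and 1.69% of all genes. Genes measured in a range only through their THP level, such as Il1b, could not count as lower there. Sod2 had log2 ratios of 2.22, 2.11, 2.15 and 3.29, Relb of 2.04, 2.18, 2.35 and 2.64, and Bcl3 of 1.54, 1.79, 2.06 and 2.65. Saa3 was at 212, 133, 136 and 126 CPM in THP members and at 8.54, 6.89, 16.0 and 2.36 CPM in vehicle members. Summed C1q RNA was 407, 674, 390 and 35.5 CPM in THP members and 280, 201, 167 and 19.0 CPM in vehicle members, lowest in the range of 400 and over in both. In that range Sod2, Relb, Bcl3 and Saa3 had their highest ratios of the 4, whereas Gpr84 and Ccl3 had their lowest, 1.93 and 1.59. From the lowest range to the highest Gpr84 had ratios of 2.44, 2.57, 2.19 and 1.93, and Ccl3 of 2.55, 2.36, 2.11 and 1.59. The inflammatory median was 2.32, 2.06, 2.11 and 1.59, also lowest in the last range. The part of macrophage RNA in these differences between ranges was not tested. Cxcl2 had ratios of 2.64, 2.20, 1.49 and 2.44. Its level in THP members went from 408 CPM in the lowest range to 43.7 CPM in the highest. Mki67 had ratios of -1.05, -1.16, -1.14 and -1.05, with little change across the ranges.

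**Figure D4:**
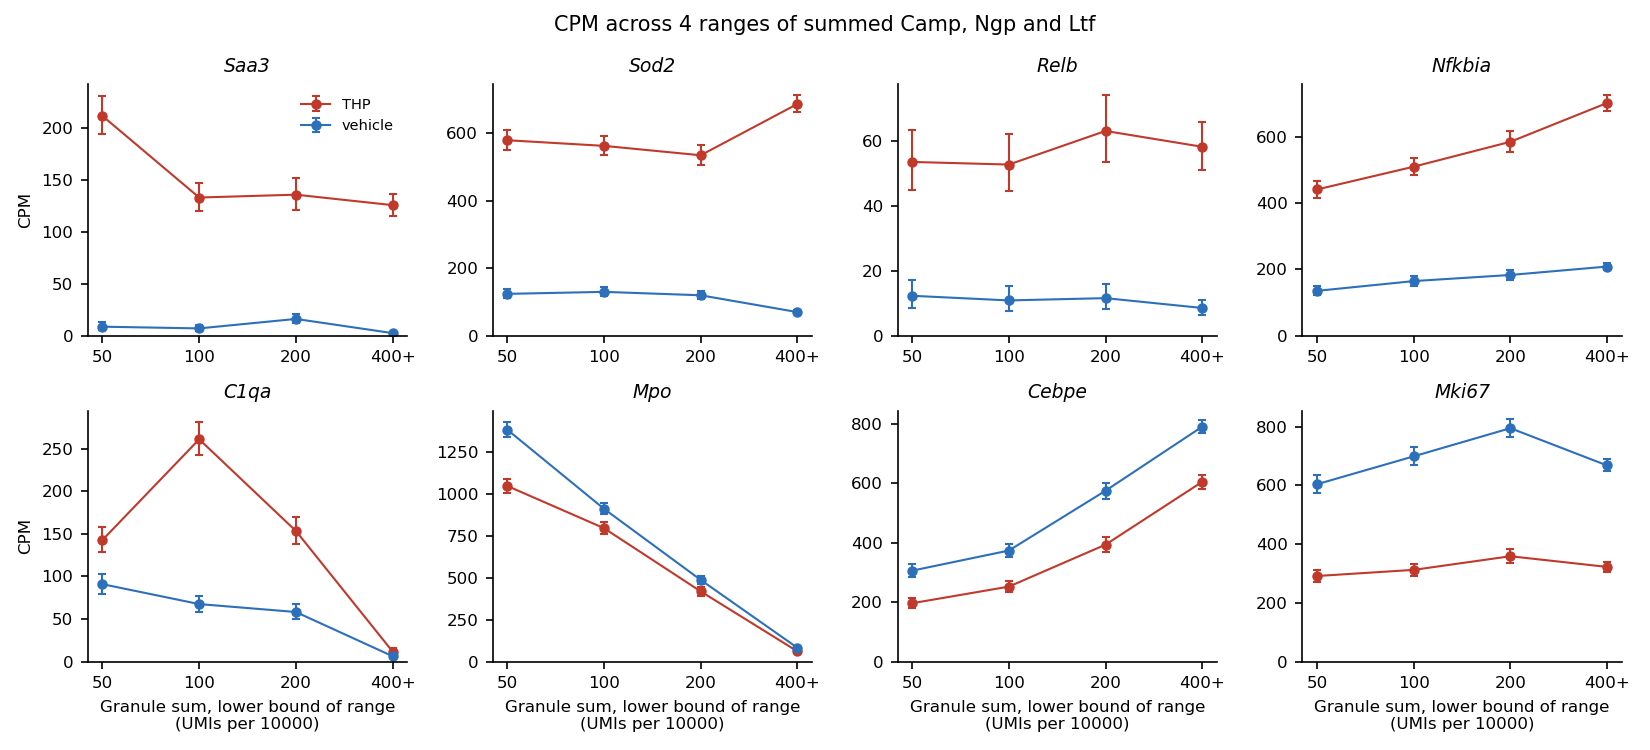
CPM of 8 genes in THP (red) and vehicle (blue) members across 4 ranges of summed Camp, Ngp and Ltf, with exact Poisson 95% intervals; each vertical axis starts at 0. Saa3, Sod2, Relb and Nfkbia lie higher in THP members in each range, C1qa is lowest in the highest range, and Mpo is lower and Cebpe higher toward it in both libraries.

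The most like populations were set beside the members, with no test of a difference possible. Mature neutrophils were 718 THP and 1005 vehicle cells with Retnlg at 10 or more per 10000 and S100a8 with S100a9 at 50 or more. Primary granule progenitors were 1185 and 1509 cells with summed Mpo, Elane, Prtn3 and Ctsg at 50 or more and a granule sum under 50. Of the 127 genes higher in members, 121 were measured in mature neutrophils and 69 were at least 2-fold higher there, where 1.84% of all genes were; in progenitors 105 were measured and 66 were, beside 1.03%. Of the 286 lower genes, 190 of 244 measured were lower in mature neutrophils, beside 10.4% of all genes, and 105 of 252 in progenitors, beside 2.04%. None of these genes was at least 2-fold in the opposite direction in either. The inflammatory median was 2.03 in mature neutrophils and 2.26 in progenitors, and the NF-kB median 1.38 and 1.48.

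Single genes had ratios that differed by stage. Sod2 had a log2 ratio of 1.15 in progenitors, 2.57 in the immature members and 3.44 in mature neutrophils. Its vehicle levels were 171, 101 and 88.8 CPM and its THP levels 381, 605 and 976 CPM in that order. Saa3 followed the same order, with ratios of 2.90, 4.18 and 4.80. Upp1 had 1.12, 2.42 and 2.05. Cxcl2 had 3.45 in progenitors, 2.35 in members and 4.19 in mature neutrophils, where it reached 1324 CPM with THP. Ifit1 was higher in THP members but had a ratio of -0.85 in mature neutrophils, at 15.6 against 28.9 CPM. Phgdh, the first enzyme of serine synthesis, was chosen with Cxcl2 after its values were seen. It had 104 against 38.8 CPM in members, 1.40, and 61.7 against 66.4 CPM in all other cells, -0.10. In progenitors it was at a higher level than in members, 284 against 220 CPM, with a ratio of 0.37.

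**Figure D5:**
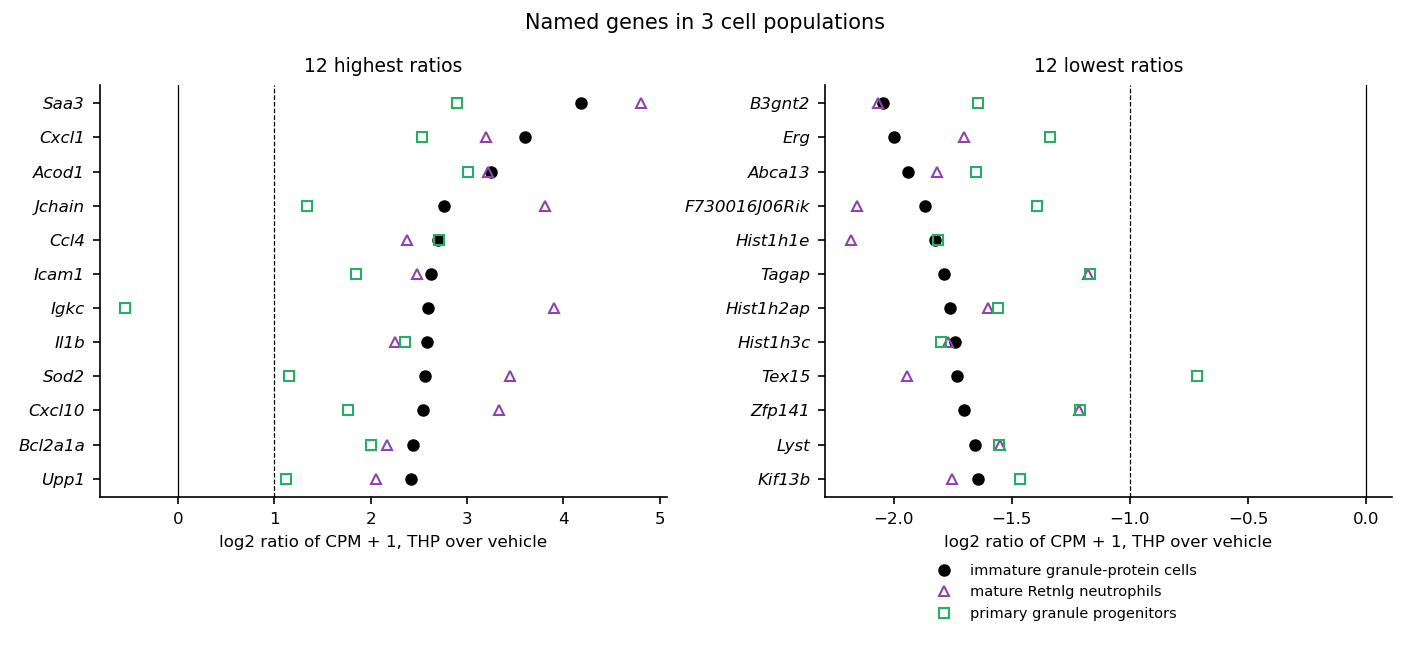
Log2 ratios of THP over vehicle for the 12 highest and the 12 lowest genes in immature granule-protein cells (filled circles), mature neutrophils (triangles) and progenitors (squares); dashed lines mark 2-fold. The ratios of Sod2 and Saa3 are ordered from progenitors to mature neutrophils, and Igkc lies at -0.54 in progenitors.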

How the data were processed

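Single cells of 2 mouse marrow cultures were counted, 1 library per group. The deposited values are UMI counts per gene and barcode from filtered matrices, made with software version 3.1.0 in matrix format 2 per the file headers; Cell Ranger, STAR, bcl2fastq and the build mm10 are named in the submitters' processing notes. For the counting strand and annotation release, the sources used here give nothing, and genes with near-identical copies are uncertain. Library totals were 227129670 (THP) and 209092047 (vehicle) UMIs. Counts were summed over member cells per library and given as CPM with exact Poisson 95% intervals, and shares with exact binomial intervals. Doublets were not called or removed, and free RNA was not removed. With 1 library per group no test was run. Genes past the size rule reached 10 CPM in either library and differed 2-fold or more in CPM + 1.

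The text names the 12 highest and 12 lowest ratios that kept their direction with TMM factors and with equal weight per cell, the markers, the granule genes, and up to 4 genes of each other list by absolute ratio; genes named outside this rule are said to be so. The members and lists were chosen with earlier results of these data known. Coordinates are from GENCODE M21 (GRCm38), which matched 31011 of 31053 genes, and promoters from RefSeq GRCm38.p6, which matched 339 of 426 list and marker genes. Python 3.11.15, NumPy 2.4.6, SciPy 1.17.1, pandas 2.3.3 and matplotlib 3.10.9 were used, with R 4.3.3 and edgeR 4.0.16 for TMM and RLE factors only. The computation was tested on simulated data. In all 21 alternatives were tried, over scaling, thinning, pseudocount, level, fold, length, cell weights, limits of the rule and cells left out.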

Additional observations from a re-analysis of the deposited data

How the results depend on the processing

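With 127 genes higher and 286 lower in THP members, the counts by setting were as follows. TMM factors gave 196 and 123, and RLE factors 201 and 118. A minimum of 30 CPM gave 81 and 174, a limit of 1.5-fold 348 and 1549, and one of 3-fold 57 and 14. No minimum gave 192 higher genes. Lower genes numbered 487 with cells thinned to 2000 UMIs and 129 with a pseudocount of 5 CPM. After thinning, 201 of the 286 lower and 92 of the 127 higher genes were still past the rule. The 487 thus include genes that were not past it before. Corrected for transcript length, 65 genes were lower and 189 higher, so that 74.4% of genes past the rule were higher. Of 3 alternatives chosen after seeing the data, keeping the overall median in the length correction gave 135 lower genes and leaving out members with a C1q, Apoe or Pf4 UMI gave 430; the other left out members rich in Igkc. A granule limit of 100 gave member shares of 8.94% (THP) and 12.5% (vehicle), and one of 30 gave 11.01% and 15.0%. The 53 named genes past the rule had no reversed value under 17 alternatives. The 12 highest and 12 lowest of them were named only if they kept their direction with TMM factors and with equal weight per cell. The inflammatory median lay between 1.62 and 2.36 and the NF-kB median between 1.26 and 1.66, while 9 of 20 list medians changed sign under some alternative, among them those of primary granule, S100, mature neutrophil, NADPH oxidase and endoplasmic reticulum genes. The cause of these shifts was not tested. Differences smaller than the counting intervals were not detectable at this depth, and variation between cultures was not measured. No paired analysis was possible because each group had 1 library.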
